A study of Homo sapiens with 4 samples.

Results

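The 42 genes described here encode the enzymes that put the mannose-6-phosphate address on lysosomal proteins, the receptors that read it, and the hydrolases and membrane proteins of the lysosome. They were chosen by name, as the site-1 protease substrate GNPTAB with its sorting partners and well-known lysosomal proteins, and all 42 were found among the 32479 genes of the deposited expression table. By role they are 3 tagging genes, 2 receptors, 12 glycosidases, 5 sulfatases, 10 peptidases, 5 lipid hydrolases and activators, 3 other soluble proteins and 2 membrane proteins.

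RNA was sequenced from HepG2, a line derived from a human liver tumour, and PLC/PRF/5, a human hepatoma line. For each line there was 1 library of cells given 20 uM PF-429242 for 24 h and 1 library of untreated cells at 24 h. The labels call the cells wild type, name no vehicle for the untreated cultures, and both lines were kept in MEM with fetal bovine serum. PF-429242 blocks MBTPS1, the site-1 protease of the Golgi. With 1 library in each of the 4 groups, no difference within a line has a replicate check and none carries a p-value. Each line is 1 model of liver cancer cells, and the labels do not tie the libraries to independent cultures.

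Levels are in FPKM, a count of sequenced fragments corrected for gene length and for the size of the library, which can be compared between genes because they are per length. Whole fragments could be recovered from the FPKM values of all 42 genes. Ratios of FPKM (PF-429242 over control, or HepG2 over PLC/PRF/5) are given with 95% exact Clopper-Pearson intervals from those fragments. Such an interval covers the counting error of a pair of libraries, and says nothing of how repeat cultures would vary. Medians and counts of genes past a fold use log2(FPKM + 1), which understates the change of low genes, over genes that reach 1 FPKM in 1 library of a pair or in both.

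The libraries held between 16722204 and 21387301 fragments. Mitochondrial genes took 27.6% of fragments in HepG2 with PF-429242 and 16.6% in the HepG2 control, and 28.2% in PLC/PRF/5 with PF-429242 and 21.3% in the PLC/PRF/5 control. The median log2 ratio of all genes was -0.17 in HepG2 and -0.13 in PLC/PRF/5. It came to -0.01 and -0.02 when totals of nuclear fragments were used, so ratios on that scale are given where they bear on a result. All 9 liver markers examined reached at least 1 FPKM in every library. They summed to 8156 FPKM in HepG2 with PF-429242 and 9479 in its control, and to 3323 FPKM in PLC/PRF/5 with PF-429242 and 2891 in its control. None of the 4 macrophage or 4 fibroblast markers in the table reached 1 FPKM in any library. Of 3 endothelial markers in the table, PECAM1 alone did, at 1.03 FPKM in PLC/PRF/5 with PF-429242 and 1.36 in its control, against 0.819 in HepG2 with PF-429242 and 0.857 in its control. The macrophage markers, which matter because macrophages are rich in lysosomes, summed to 0.575 FPKM in HepG2 with PF-429242, 0.749 in the HepG2 control, 0.359 in PLC/PRF/5 with PF-429242 and 0.211 in the PLC/PRF/5 control. Of these CD68 was listed at 0 in both controls, and shares 85.8% of its exon bases with another gene. HMGCS1, a cholesterol synthesis enzyme under SREBP control, had 5.18 FPKM in HepG2 with PF-429242, against 38.0 in its control, and 8.29 FPKM in PLC/PRF/5 with PF-429242, against 28.1 in its control. In bulk RNA, fewer cells of a kind and less RNA per cell cannot be told apart.

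Most soluble lysosomal enzymes are made in the endoplasmic reticulum and carry N-glycans. In the Golgi, GlcNAc-1-phosphotransferase, built from subunits encoded by GNPTAB and GNPTG, adds a masked phosphate to mannose residues of these glycans, and the uncovering enzyme NAGPA removes the mask. The receptors M6PR and IGF2R then carry the enzymes to endosomes and return to the Golgi. The product of GNPTAB is a precursor that site-1 protease cuts into its active subunits, a step of the protein, which was not measured here. Many lysosomal genes carry an E-box element, called CLEAR when extended, to which the transcription factors TFEB and TFE3 bind.

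Promoter windows from RefSeq (GRCh38.p14), reaching from 250 bases before to 50 bases after each gene's start, were matched for 32 of the 42 genes. The core E-box CACGTG, searched on both strands, stood in 12 of these 32 windows (37.5%) and in 8.77% of the 27305 genes with a window. Many of the 27305 genes were not measured here, so the backgrounds are unlike. Of genes measured in HepG2, 1072 had the core in the window and 7195 did not. In PLC/PRF/5 these were 1130 and 7636. The longer form TCACGTGA, which contains the core, stood in 8 of 32 (25%) and in 1.18% of all genes, and the full CLEAR element, with 1 more base at each end and given in capitals below, in 4 of 32 (12.5%) and in 0.421%. The SRE-1 sterol regulatory sequence and its shorter, looser form TCACNCCAC were in none of the 32 windows, and in 0.0586% and 1.39% of all genes. The 30-base stretches below are shown because they hold the full element in the genes that have it, and the E-box in NAGPA and NEU1. On the deposited scale the intervals of these 2 genes lay on opposite sides of 1 in the 2 lines, as did those of GAA and IGF2R. So did those of CTSH, whose window holds no E-box. The intervals of GNPTG and GALNS held 1 in both lines. Capitals mark the element, and each sequence runs 5′ to 3′ on the strand of its gene.
GAA: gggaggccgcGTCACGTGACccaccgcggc
GAA, second element: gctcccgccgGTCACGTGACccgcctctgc
IGF2R: ccgggcggctGTCACGTGACgcggttccgg
GNPTG: ggtccccgtgGTCACGTGACcgtcacttca
GALNS: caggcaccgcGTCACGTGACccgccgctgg
NAGPA: tgggacttgagTCACGTGAggcgagcccac
NEU1: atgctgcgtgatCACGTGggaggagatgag

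On GRCh38.p14 the GAA stretches lie at chr17:80101493-80101522 and chr17:80101538-80101567 on the plus strand. The IGF2R stretch lies at chr6:159969042-159969071 and that of GNPTG at chr16:1351907-1351936, both on the plus strand. Those of GALNS (chr16:88857104-88857133), NAGPA (chr16:5033938-5033967) and NEU1 (chr6:31862930-31862959) are on the minus strand. A match is a stretch of letters and not a measured binding site.

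Seen as a whole, the 42 genes differed little between treated cells and their controls. In HepG2, 34 of the 39 genes measured were lower with PF-429242 and 5 higher, where 82.4% of all genes were lower, with a median log2 ratio of -0.13 against -0.17 over all 12347 genes measured. In PLC/PRF/5, 28 of 41 were lower and 13 higher, where 70.9% of all genes were lower, with a median of -0.09 against -0.13 over 13144 genes. LIPA was the one gene at least 1.5-fold lower in HepG2, where 5.54% of all genes were, and the one in PLC/PRF/5, where 5.07% were. It was also 2-fold lower in HepG2, as were 2.14% of all genes, and no gene of the 42 was in PLC/PRF/5, where 1.82% were. None was 1.5-fold higher in HepG2 or in PLC/PRF/5, where 2.33% and 4.25% of all genes were. Among protein-coding genes alone, 2.53% and 2.41% were at least 1.5-fold lower in HepG2 and PLC/PRF/5, and 0.410% and 1.84% at least 1.5-fold higher. The members' sum of FPKM was 617 in HepG2 with PF-429242 and 685 in the HepG2 control, and 819 in PLC/PRF/5 with PF-429242 and 873 in the PLC/PRF/5 control. As a share of nuclear fragments the order turned, with 0.488% in HepG2 with PF-429242 and 0.461% in its control, and 0.569% in PLC/PRF/5 with PF-429242 and 0.539% in its control.

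**Figure D1:**
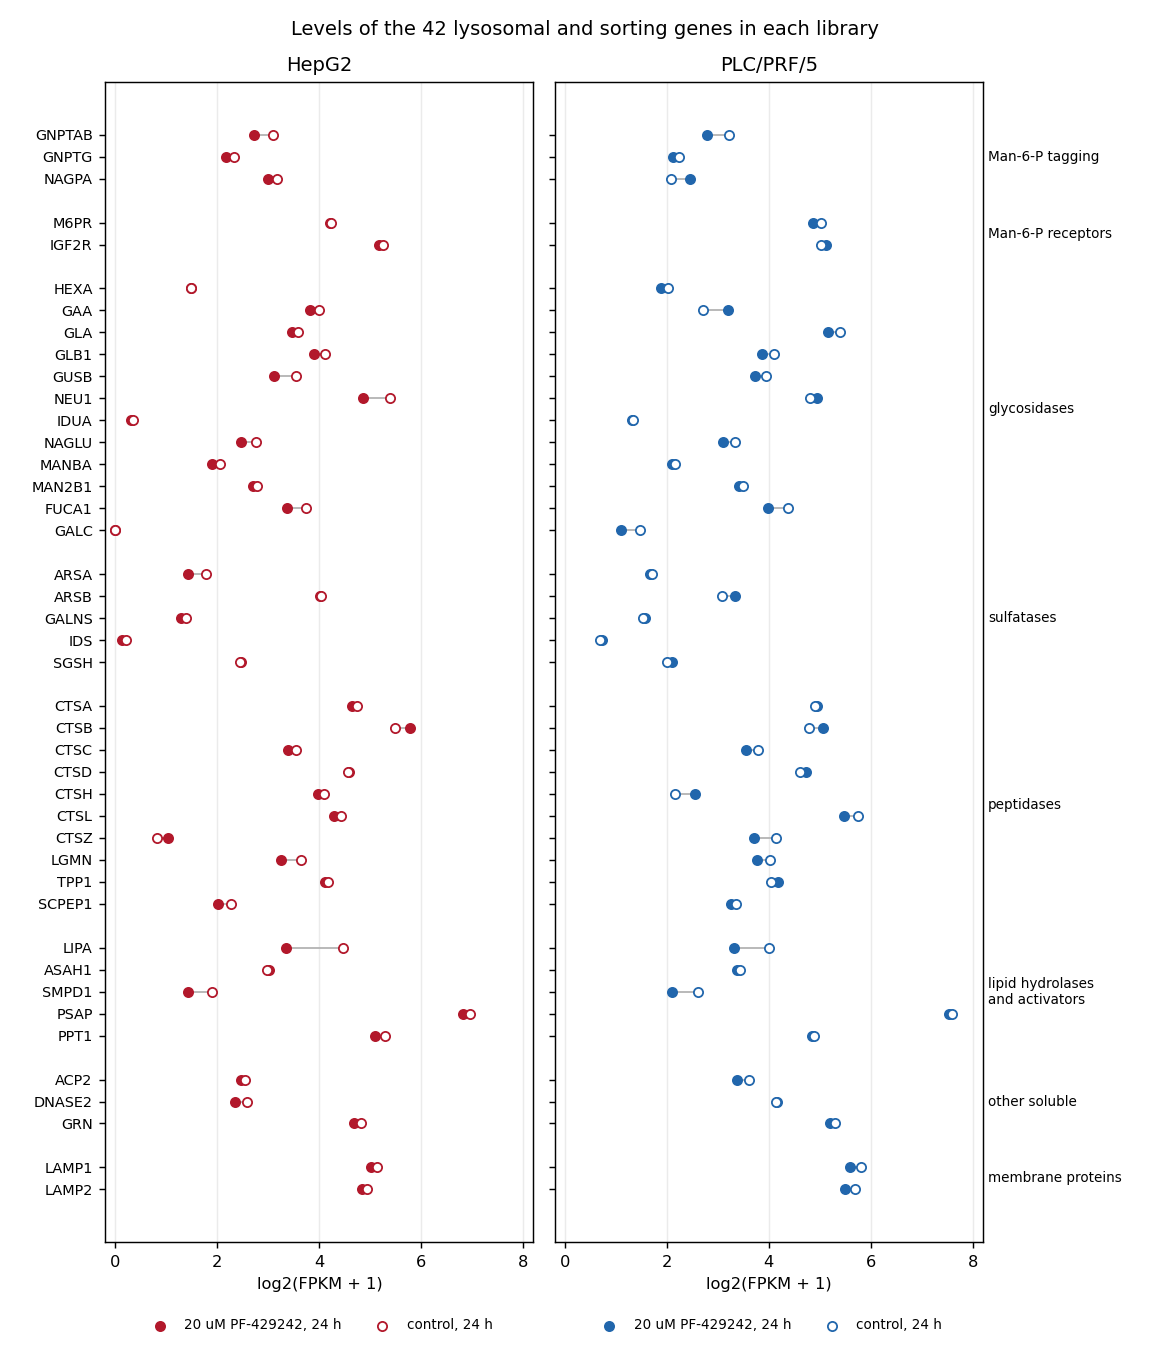
Level of each of the 42 genes in the 4 libraries as log2(FPKM + 1), with HepG2 on the left and PLC/PRF/5 on the right, PF-429242 and control joined by a line, and genes ordered by role. PSAP is the highest gene in every library, GALC lies at 0 in both HepG2 libraries, and most pairs of points lie close together, with the longest gap at LIPA.

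Of the 39 genes measured in both lines, 24 (61.5%) were lower in both, as were 62.5% of 11062 genes. Another 3 (7.69%, against 8.36% of all genes) were higher in both, 10 (25.6%, against 21.3%) were lower in HepG2 and higher in PLC/PRF/5, and 2 (5.13%, against 7.80%) the reverse. These shares lie near those of all genes. LIPA was at least 1.5-fold lower in both lines, as were 1.04% of all genes, and none was 1.5-fold higher in both, as were 0.533%.

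A single fit of both lines (limma on log2(FPKM + 1), cell line as a block, 1 residual degree of freedom) was made over 12838 genes, of which 41 are described here, IDS being too low. With Benjamini-Hochberg adjustment it called 0 genes at 0.05, and the lowest adjusted p was 0.193, both over all genes and among the 41. At an unadjusted p under 0.05 it listed 9 of the 41 as lower (GNPTAB, GLB1, GUSB, NAGLU, FUCA1, CTSL, LGMN, LIPA and SMPD1), where 17.5% of all genes were. With nuclear totals it listed 4 as lower and 3 as higher, where 1345 of all 12838 genes were listed in either direction. On the deposited scale it listed CTSB as higher, where 1.90% of all genes were.

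The tagging genes come first in the pathway. GNPTAB (ENSG00000111670; chr12:101745497-101830938 on GRCh38, minus strand), the alpha and beta subunit precursor, had 5.58 FPKM in HepG2 with PF-429242, against 7.49 in the HepG2 control. It had 5.90 FPKM in PLC/PRF/5 with PF-429242, against 8.28 in the PLC/PRF/5 control. The transcript of this site-1 protease substrate was thus lower in both treated libraries, at 0.745 times control in HepG2 (95% interval 0.686 to 0.809) and 0.713 times in PLC/PRF/5 (0.658 to 0.771). With totals of nuclear fragments the ratios were 0.858 (0.790 to 0.931) and 0.781 (0.721 to 0.845). In the shared fit its log2 ratio was -0.40 (SE 0.08, limma adjusted p = 0.193), which did not pass.

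GNPTG, the gamma subunit that helps recognise substrates, had 3.49 FPKM in HepG2 with PF-429242 and 3.99 in its control, and 3.34 FPKM in PLC/PRF/5 with PF-429242 and 3.73 in its control. Both counting intervals of its ratio held 1 (0.740 to 1.04 in HepG2 and 0.752 to 1.06 in PLC/PRF/5), and 30.9% of its exon bases are shared with another gene. NAGPA (chr16:5024844-5034141, minus strand), the uncovering enzyme, had 7.0 FPKM in HepG2 with PF-429242, against 7.94 in its control. Its level in PLC/PRF/5 was 4.49 FPKM with PF-429242, against 3.22 in its control. Its ratio was 0.882 in HepG2 (0.796 to 0.977) and 1.39 in PLC/PRF/5 (1.21 to 1.60), so the lines had opposite directions on the deposited scale. With nuclear totals the HepG2 ratio was 1.02, with an interval of 0.916 to 1.12, and that of PLC/PRF/5 was 1.53 (1.32 to 1.76).

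The receptors had ratios nearer to 1. IGF2R, the large cation-independent receptor, had 35.2 FPKM in HepG2 with PF-429242 and 36.9 in its control, and 33.9 FPKM in PLC/PRF/5 with PF-429242 and 31.5 in its control. Counted in 10263 to 12774 fragments, its ratios of 0.952 (0.928 to 0.977) in HepG2 and 1.08 (1.05 to 1.11) in PLC/PRF/5 were on opposite sides of 1, and were both above 1 with nuclear totals (1.10 and 1.18). M6PR, the small cation-dependent receptor, had 17.6 FPKM in HepG2 with PF-429242 and 17.7 in its control. It had 28.0 FPKM in PLC/PRF/5 with PF-429242 and 31.6 in its control, a ratio of 0.885 (0.832 to 0.942), and 29.3% of its exon bases are shared with another gene. With nuclear totals the M6PR ratio was 1.15 (1.06 to 1.24) in HepG2. In PLC/PRF/5 it was 0.970 on that scale, and the interval (0.911 to 1.03) held 1.

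**Figure D2:**
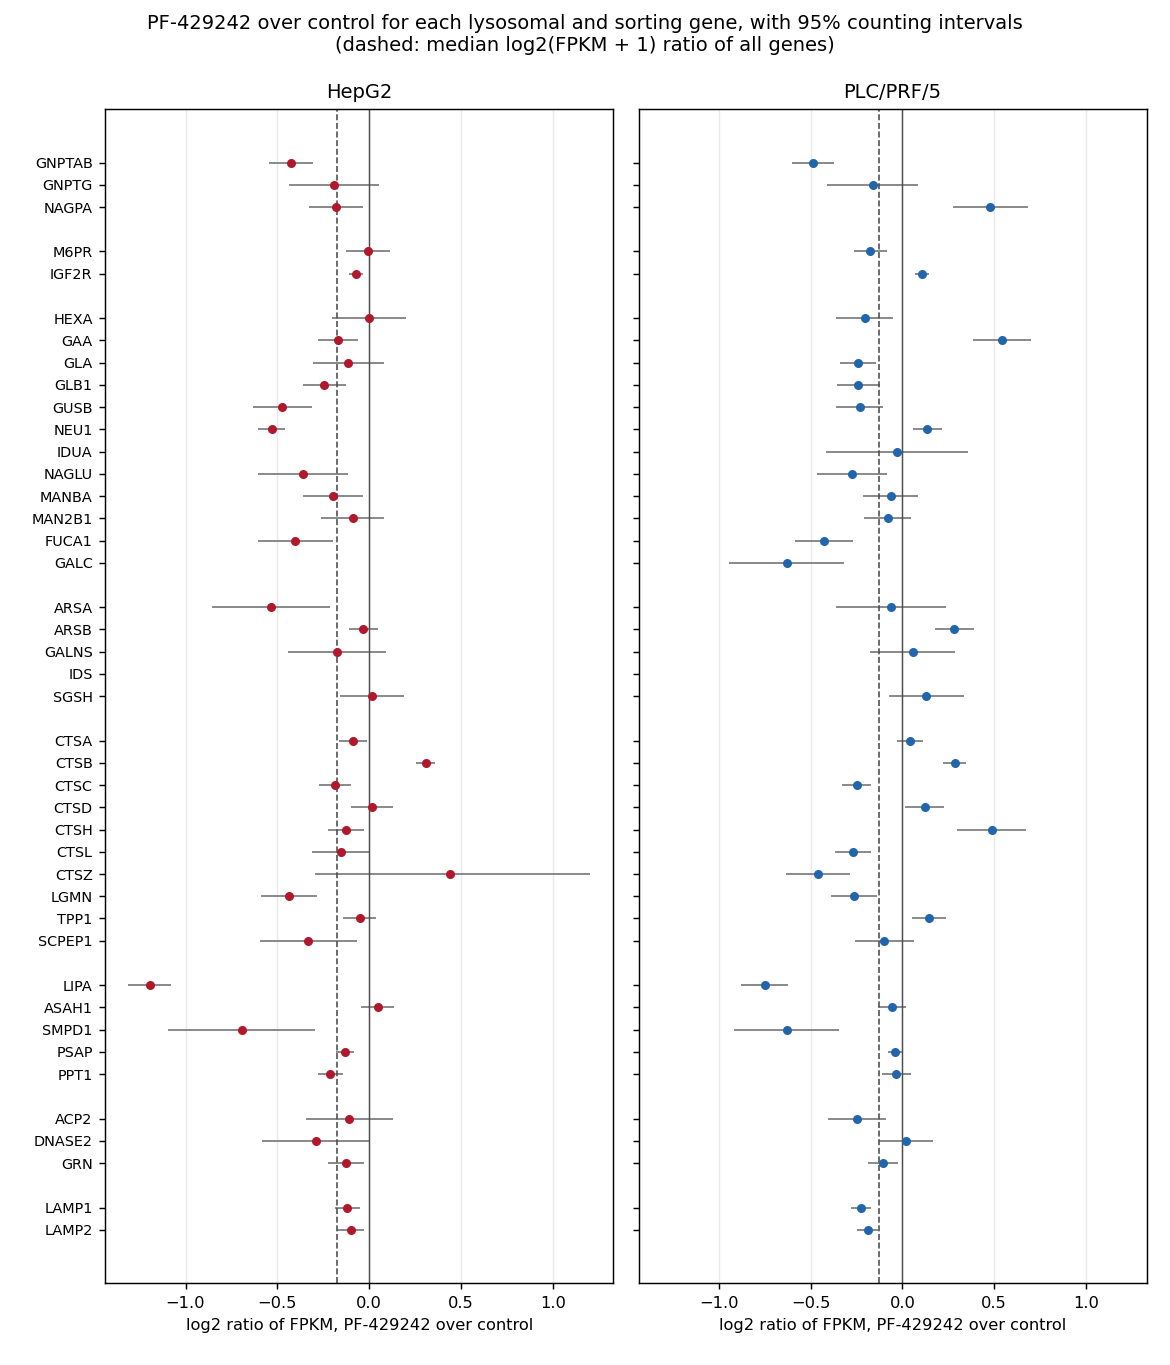
Ratio of FPKM, PF-429242 over control, on a log2 axis for each gene in HepG2 (left) and PLC/PRF/5 (right), with 95% counting intervals as bars. The dashed line is the median log2(FPKM + 1) ratio of all genes, a measure unlike that of the points. GALC, IDUA and IDS in HepG2 and IDS in PLC/PRF/5 are left out for lying under 1 FPKM. LIPA stands farthest below 0 in both lines, CTSB lies above 0 in both, and GAA, CTSH and NAGPA lie above 0 in PLC/PRF/5 and below it in HepG2.

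Among lipid hydrolases, LIPA (ENSG00000107798; chr10:89213569-89414557, minus strand), the acid lipase that frees cholesterol and fatty acids from lipoprotein esters, had the lowest ratio of the 42 genes in both lines. It had 9.19 FPKM in HepG2 with PF-429242, against 21.0 in its control, and 8.92 FPKM in PLC/PRF/5 with PF-429242, against 15.0 in its control. The controls were both higher than both treated libraries, whose levels lay close together. Relative to control the level was 0.437 times (0.403 to 0.474) in HepG2 and 0.595 times (0.544 to 0.649) in PLC/PRF/5, and 0.503 and 0.652 times with nuclear totals. In the shared fit the log2 ratio was -0.90 (SE 0.13, limma unadjusted p = 0.0021, adjusted p = 0.193).

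SMPD1 (chr11:6390431-6394998, plus strand), acid sphingomyelinase, had 1.69 FPKM in HepG2 with PF-429242, against 2.73 in its control, and 3.31 FPKM in PLC/PRF/5 with PF-429242, against 5.12 in its control. Both treated libraries were lower than their controls, with ratios of 0.618 (0.468 to 0.814) and 0.646 (0.529 to 0.788) in HepG2 and PLC/PRF/5. On the log2(FPKM + 1) scale these are -0.47 and -0.51, just short of 1.5-fold, because the level is low. The counts behind them were 94 fragments in HepG2 with PF-429242 and 125 in its control, and 154 fragments in PLC/PRF/5 with PF-429242 and 300 in its control.

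The other lipid genes were nearer to 1. PSAP, the precursor of the saposins that present sphingolipids to their hydrolases, was the highest of the 42 genes in all 4 libraries. It had 112 FPKM in HepG2 with PF-429242 and 123 in its control, and 186 FPKM in PLC/PRF/5 with PF-429242 and 191 in its control. PPT1, which removes palmitate from proteins, had ratios of 0.864 in HepG2 and 0.977 in PLC/PRF/5, and ASAH1, acid ceramidase, 1.03 and 0.962.

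All 10 glycosidases measured in HepG2 were lower with PF-429242 than in its control, and 10 of 12 were in PLC/PRF/5, with median log2 ratios of -0.19 and -0.18. Over all genes 82.4% and 70.9% were lower in HepG2 and PLC/PRF/5, with medians of -0.17 and -0.13, so the glycosidases lay near the background. With nuclear totals GAA, GLA, HEXA, MANBA and MAN2B1 had ratios above 1 in HepG2. FUCA1, which removes fucose, had 9.31 FPKM in HepG2 with PF-429242, against 12.3 in its control, and 14.8 FPKM in PLC/PRF/5 with PF-429242, against 19.9 in its control. Its ratios were much alike, at 0.757 (0.658 to 0.871) in HepG2 and 0.744 (0.666 to 0.831) in PLC/PRF/5. With nuclear totals the HepG2 interval, 0.758 to 1.00, reached 1. GUSB, beta-glucuronidase, had ratios of 0.721 and 0.850 in HepG2 and PLC/PRF/5, GLB1, beta-galactosidase, 0.845 and 0.846, and NAGLU, which acts on heparan sulfate, 0.778 and 0.828. All of these had counting intervals under 1 in both lines on the deposited scale and, with nuclear totals, not in both.

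NEU1 and GAA were lower with PF-429242 in HepG2 and higher with it in PLC/PRF/5. NEU1 (chr6:31857659-31862906, minus strand), the lysosomal sialidase, had 28.1 FPKM in HepG2 with PF-429242, against 40.6 in its control, and 29.7 FPKM in PLC/PRF/5 with PF-429242, against 27.1 in its control. The HepG2 control stood apart from the other 3 libraries, which lay within 3 FPKM of each other. The ratio was 0.692 (0.658 to 0.729) in HepG2 and 1.10 (1.04 to 1.16) in PLC/PRF/5, and 0.797 and 1.20 with nuclear totals, where the intervals again lay on opposite sides of 1. GAA (chr17:80101556-80119879, plus strand), the acid alpha-glucosidase that degrades glycogen, had 13.2 FPKM in HepG2 with PF-429242, against 14.8 in its control. Its PLC/PRF/5 libraries had 8.13 FPKM with PF-429242, against 5.58 in the control. Its ratio was 0.888 (0.823 to 0.958) in HepG2 and 1.46 (1.31 to 1.62) in PLC/PRF/5, and 1.02 and 1.60 with nuclear totals.

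The remaining glycosidases had few fragments or small differences. GALC, which removes galactose from galactosylceramide, had 0 fragments in both HepG2 libraries. The PLC/PRF/5 libraries had 132 of its fragments with PF-429242 and 257 in the control, or 1.15 and 1.78 FPKM, a ratio of 0.647 (0.520 to 0.801). IDUA, which acts on dermatan and heparan sulfate, had 0.230 FPKM in HepG2 with PF-429242 and 0.265 in its control, and 1.48 FPKM in PLC/PRF/5 with PF-429242 and 1.51 in its control. For the others, GLA, HEXA, MANBA and MAN2B1, ratios ran between 0.846 and 0.999 over both lines.

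The sulfatases, which strip sulfate from glycosaminoglycans and sulfatides, had a median log2 ratio of -0.07 in HepG2 and 0.07 in PLC/PRF/5. ARSB had 15.1 FPKM in HepG2 with PF-429242 and 15.4 in its control, and 9.13 FPKM in PLC/PRF/5 with PF-429242 and 7.51 in its control. The PLC/PRF/5 ratio was 1.22 (1.13 to 1.31) and that of HepG2 0.978 (0.925 to 1.03). ARSA, the sulfatide sulfatase, was at 1.67 FPKM in HepG2 with PF-429242 and 2.42 in its control, and at 2.17 and 2.26 in PLC/PRF/5 with PF-429242 and its control. SGSH and GALNS had ratios between 0.887 and 1.09. IDS lay between 0.0899 and 0.646 FPKM in the 4 libraries, under the minimum of 1 FPKM in each.

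Peptidases held the one gene of the 42 with counting intervals above 1 in both lines on the deposited scale. CTSB, the abundant cysteine protease cathepsin B, had 54.1 FPKM in HepG2 with PF-429242, against 43.7 in its control, and 32.6 FPKM in PLC/PRF/5 with PF-429242, against 26.8 in its control. Both treated libraries were above their own controls, by 1.24 times (1.20 to 1.28) in HepG2 and 1.22 times (1.17 to 1.27) in PLC/PRF/5. With nuclear totals these were 1.43 and 1.33 times. In the shared fit its log2 ratio was 0.29 (SE 0.07, limma unadjusted p = 0.0128, adjusted p = 0.195), and the sign turned, to -0.04, when FPKM were rescaled to equal sums.

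CTSH (chr15:78921058-78949574, minus strand), an aminopeptidase, had 14.7 FPKM in HepG2 with PF-429242 and 16.0 in its control, and 4.87 FPKM in PLC/PRF/5 with PF-429242 and 3.48 in its control. Its ratio was 0.917 (0.856 to 0.982) in HepG2 and 1.40 (1.23 to 1.60) in PLC/PRF/5, and 1.06 and 1.53 with nuclear totals. LGMN, the asparaginyl endopeptidase, had 8.48 FPKM in HepG2 with PF-429242 and 11.5 in its control, and 12.7 FPKM in PLC/PRF/5 with PF-429242 and 15.2 in its control. It was lower in both lines, at 0.740 (0.665 to 0.822) and 0.833 (0.762 to 0.910) times control in HepG2 and PLC/PRF/5. With nuclear totals these ratios were 0.852 (0.766 to 0.947) and 0.913 (0.835 to 0.997).

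CTSZ, a carboxypeptidase, had 1.03 FPKM in HepG2 with PF-429242 and 0.760 in its control, a ratio whose interval (0.816 to 2.30) held 1. It had 12.1 FPKM in PLC/PRF/5 with PF-429242 and 16.7 in its control, a ratio of 0.727 (0.644 to 0.821). CTSD, the aspartic protease cathepsin D, had ratios of 1.01 and 1.09 in HepG2 and PLC/PRF/5, with 52.7% of its exon bases shared with another gene. CTSL and CTSC had ratios of 0.90 and 0.879 in HepG2 and 0.829 and 0.841 in PLC/PRF/5. CTSA, which also protects NEU1 and GLB1, TPP1, which trims tripeptides, and SCPEP1 ran between 0.795 and 1.11.

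LAMP1 and LAMP2, the heavily glycosylated proteins that line the lysosomal membrane and need no mannose-6-phosphate, had ratios of 0.921 and 0.932 in HepG2 and 0.856 and 0.876 in PLC/PRF/5. With nuclear totals the HepG2 ratios were 1.06 and 1.07 and those of PLC/PRF/5 0.938 and 0.960. GRN, the progranulin precursor, DNASE2, the acid DNase, and ACP2, an acid phosphatase, had ratios between 0.818 and 1.01.

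Counting intervals clear of 1 in both lines show how far the totals matter. A gene with more fragments clears 1 at a smaller difference, and all genes were not matched in depth to those described here. On the deposited scale 13 of 39 genes (33.3%) had intervals below 1 in both lines, where 30.0% of 10977 genes did, and 1 (2.56%, against 2.00%) above it in both. Intervals lay below 1 in HepG2 and above it in PLC/PRF/5 for 5 genes (12.8%, against 4.86% of all genes), namely NAGPA, IGF2R, GAA, NEU1 and CTSH, and the reverse held for 0 genes, against 0.492% of all. With nuclear totals 4 genes (10.3%, against 8.97% of all genes) lay below 1 in both lines, namely GNPTAB, LGMN, LIPA and SMPD1. Another 8 (20.5%, against 8.55%) lay above it in both, namely IGF2R, ARSB, SGSH, CTSA, CTSB, CTSD, TPP1 and PSAP. NEU1 lay below 1 in HepG2 and above it in PLC/PRF/5 (2.56%, against 2.48%), and LAMP1 and LAMP2 the reverse (5.13%, against 2.16%). CTSA, CTSD and TPP1 share 14.4% to 52.7% of their exon bases with other genes.

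The genes with and without the E-box can be set side by side. In HepG2 the 12 genes with CACGTG in the window had a median log2 ratio of -0.11, with 1 above 0, and the 17 measured genes without it had -0.17, also with 1 above 0. In PLC/PRF/5 the 12 with it had a median of 0.07, with 8 above 0, and the 19 without it had -0.23, with 3 above 0. Split by the longer TCACGTGA, the 8 genes with it had a median of 0.04 in PLC/PRF/5, with 5 above 0. The 23 measured genes without it had -0.22, with 6 above 0. In HepG2 the 8 with TCACGTGA had a median of -0.13, with 0 above 0. The 21 measured without it had -0.14, with 2 above 0. Over all genes with a window, those with CACGTG had medians of -0.15 in HepG2 and -0.09 in PLC/PRF/5, and those without it -0.18 and -0.14. In PLC/PRF/5 30.6% of all genes with CACGTG were above 0 and 24.45% of those without it, and in HepG2 17.3% and 12.7%. These counts are on the deposited scale. With nuclear totals the genes with CACGTG had HepG2 ratios above 1, except NEU1 and SCPEP1. Of the measured genes without it, GLA, MAN2B1, CTSC, CTSH, CTSL, CTSZ, TPP1, ACP2 and GRN did so too. In PLC/PRF/5 all with CACGTG but GNPTG, M6PR and LAMP1 lay above 1 on that scale. Of those without it, IDUA, MAN2B1, CTSH, TPP1, PPT1, DNASE2 and GRN did. Over all genes the median log2 ratio with nuclear totals was -0.01 in HepG2 and -0.02 in PLC/PRF/5. Shares of all genes above 1 on that scale, with and without CACGTG, were not counted. The comparison by E-box is a description of matched letters, with no test. The factors themselves, named here outside the rule for genes, were low for TFEB, at 0.896 FPKM in HepG2 with PF-429242 and 1.23 in its control and 0.792 FPKM in PLC/PRF/5 with PF-429242 and 0.555 in its control. TFE3 had 8.47 and 9.0 FPKM in HepG2 with PF-429242 and its control, and 13.6 and 14.7 FPKM in PLC/PRF/5 with PF-429242 and its control.

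**Figure D3:**
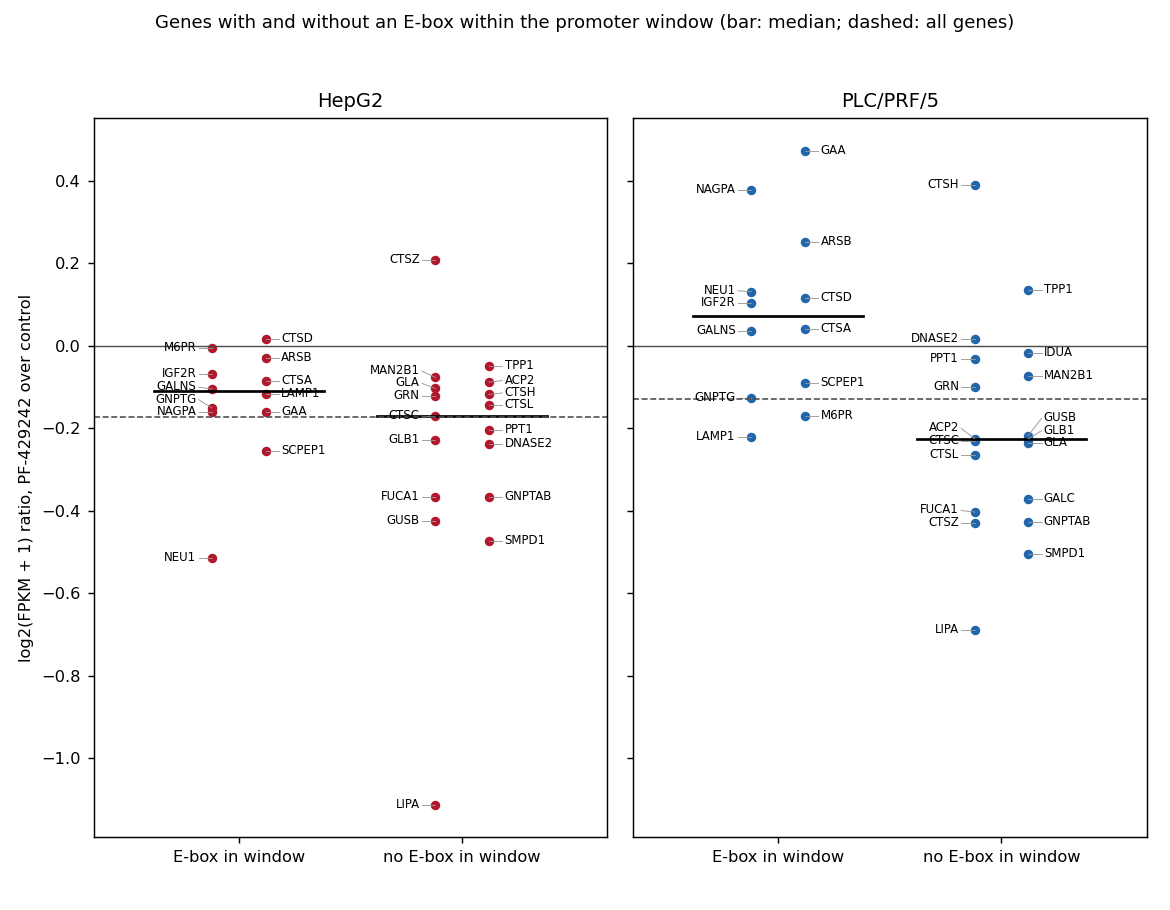
The log2(FPKM + 1) ratio, PF-429242 over control, of the genes with a promoter window, split by whether the window holds the E-box, in HepG2 (left) and PLC/PRF/5 (right), with a bar at each median. On the deposited scale 8 of the 12 genes with the E-box lie above 0 in PLC/PRF/5, and 3 of the 19 without it do. In HepG2 1 gene of each kind does.

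The untreated lines stood farther apart than treated cells did from their controls. Between the controls, HepG2 over PLC/PRF/5, 5 of 41 genes were at least 1.5-fold higher, where 19.8% of 13861 genes were, and 15 were at least 1.5-fold lower, where 23.7% were. The median log2 ratio of the 41 was -0.38, against -0.06 over all genes. The 5 higher genes were NAGPA, GAA, ARSB, CTSH and CTSB. CTSH had 16.0 FPKM in the HepG2 control and 3.48 in the PLC/PRF/5 control, a ratio of 4.62 (4.15 to 5.14). The ratio was 2.66 for GAA, 2.46 for NAGPA, 2.06 for ARSB and 1.63 for CTSB.

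The 15 lower genes included GALC and CTSZ, with the lowest ratios of FPKM. With 0 fragments in the HepG2 control and 257 in the PLC/PRF/5 control, GALC was at least 67.0-fold lower in HepG2, taking 3 fragments as the limit for a count of 0. The exact 95% interval of that ratio, which is wider, reached 0.0185. CTSZ had 0.760 FPKM in the HepG2 control and 16.7 in the PLC/PRF/5 control, a ratio of 0.0456 (0.0296 to 0.0674). GLA, which removes terminal galactose from glycolipids, had 10.9 and 41.2 FPKM in the HepG2 and PLC/PRF/5 controls, and DNASE2 5.01 and 16.6. The membrane proteins and the small receptor were lower in HepG2 too, with ratios of 0.623 for LAMP1, 0.587 for LAMP2 and 0.559 for M6PR. This comparison shares its control libraries with those of treatment above.

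**Figure D4:**
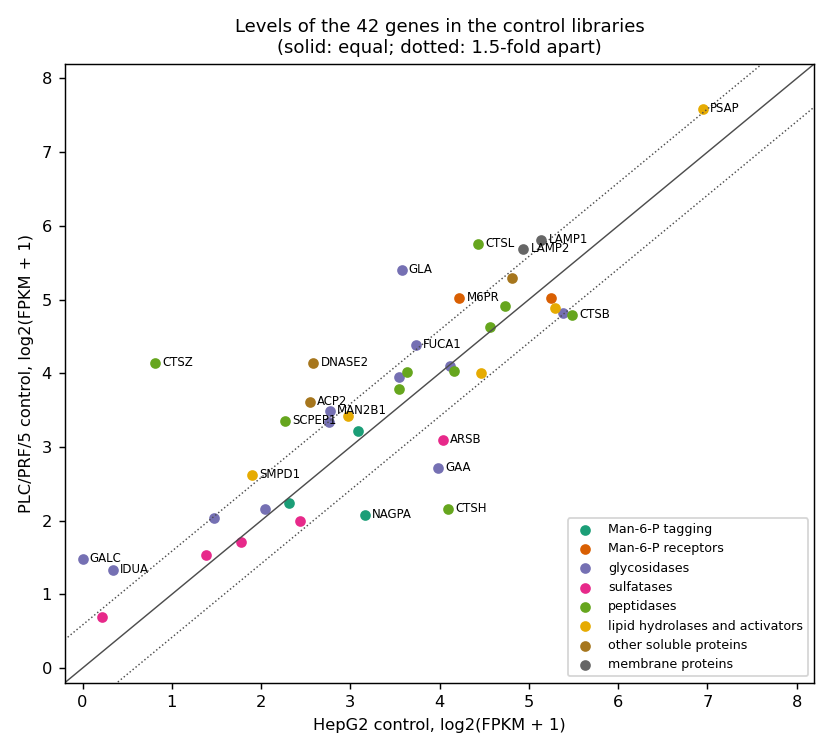
Level of each gene as log2(FPKM + 1) in the HepG2 control (horizontal axis) and the PLC/PRF/5 control (vertical axis), coloured by role, with genes at least 1.5-fold apart named. CTSH, GAA, NAGPA, ARSB and CTSB lie on the HepG2 side, CTSZ is farthest to the PLC/PRF/5 side, and GALC lies at 0 on the horizontal axis.

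Other genes of the lysosome were examined as lists. Of 28 other hydrolases and activators, 20 were measured in HepG2, where 19 were lower with PF-429242, and 23 in PLC/PRF/5, where 21 were, against 82.4% and 70.9% of all genes. Their medians were -0.14 in HepG2 and -0.28 in PLC/PRF/5, against -0.17 and -0.13 over all genes, and 9 of the 20 and 17 of the 23 lay below the median of all genes. GM2A, the activator that presents ganglioside GM2, had 9.28 FPKM in HepG2 with PF-429242, against 15.9 in its control, and 14.8 FPKM in PLC/PRF/5 with PF-429242, against 19.1 in its control. It was the one of this list at least 1.5-fold lower in HepG2, at 0.584 times (0.534 to 0.639), and stood at 0.774 times (0.718 to 0.834) in PLC/PRF/5. PRCP, a carboxypeptidase, had ratios of 0.740 and 0.718, and HGSNAT, which acetylates heparan sulfate, 0.875 and 0.633 in HepG2 and PLC/PRF/5.

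Lysosomal membrane proteins had medians of -0.21 over 17 genes in HepG2 and -0.16 over 19 in PLC/PRF/5, and none reached 1.5-fold. NPC1, which exports cholesterol from the lysosome, had 7.88 FPKM in HepG2 with PF-429242, against 10.4 in its control, and 7.84 FPKM in PLC/PRF/5 with PF-429242, against 11.8 in its control. LAPTM4A, a membrane protein of late endosomes and lysosomes, had ratios of 0.725 and 0.863 in HepG2 and PLC/PRF/5, and the tetraspanin CD63 0.775 and 0.813. CLCN7, a chloride and proton exchanger, was higher with PF-429242 in both lines, at 1.19 times (1.08 to 1.31) in HepG2 and 1.42 times (1.30 to 1.55) in PLC/PRF/5. None of these genes passed the shared fit.

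**Figure D5:**
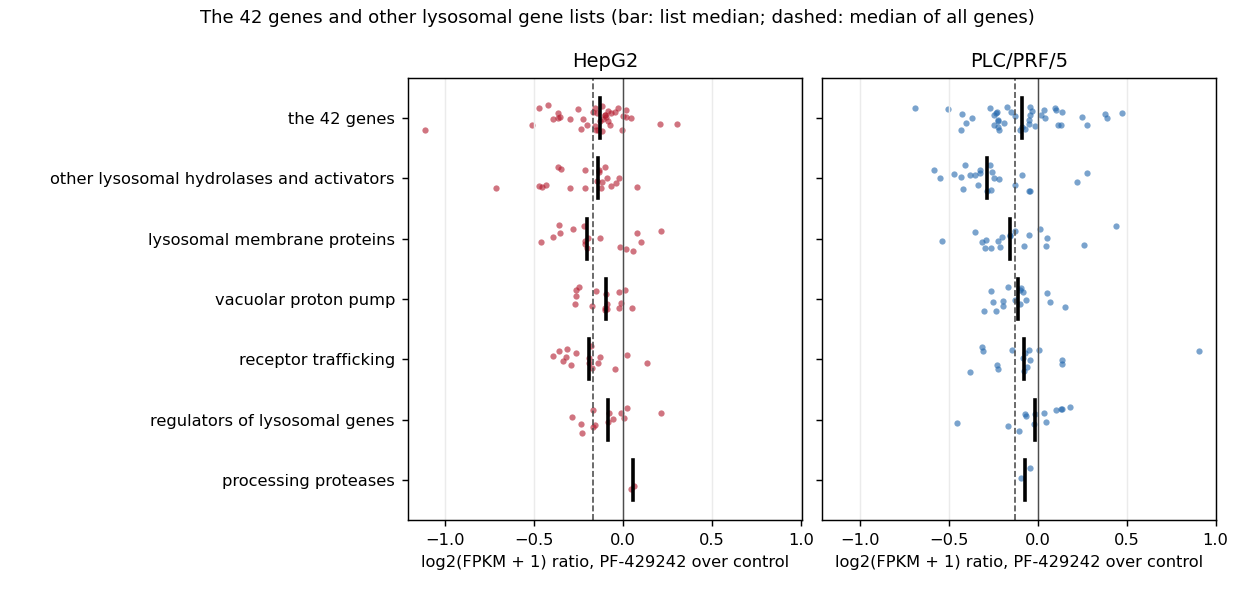
Log2(FPKM + 1) ratio, PF-429242 over control, of each measured gene of the 42 and of 6 other lists, in HepG2 (left) and PLC/PRF/5 (right), with a bar at each list's median and the median of all genes as a dashed line. List medians lie between -0.28 and 0.05, LIPA is the outlying point among the 42, and SORL1 is the one to the right among the trafficking genes in PLC/PRF/5.

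The 16 subunits and accessory proteins of the proton pump that acidifies the lysosome had medians of -0.10 in HepG2 and -0.11 in PLC/PRF/5, and none reached 1.5-fold. Those with the largest mean change, ATP6AP2, ATP6V0A2, ATP6AP1 and ATP6V0D1, had ratios between 0.765 and 0.931. The 16 genes of receptor trafficking had medians of -0.20 and -0.07 in HepG2 and PLC/PRF/5. SORL1, a sorting receptor of the same broad family as SORT1, had 8.27 FPKM in HepG2 with PF-429242 and 7.44 in its control. Its PLC/PRF/5 level was 3.76 FPKM with PF-429242 and 1.54 in its control, a ratio of 2.44 (2.21 to 2.68) and the one gene of this list at least 1.5-fold higher there. SORT1, AP1S1 of the AP-1 adaptor and CLTC, the clathrin heavy chain, had ratios between 0.743 and 0.854 in both lines.

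Regulators of lysosomal genes had medians of -0.09 in HepG2 and -0.02 in PLC/PRF/5 over 13 genes each. ZKSCAN3, a zinc finger protein described as a repressor of lysosomal genes, had 1.52 FPKM in HepG2 with PF-429242 and 1.68 in its control, and 1.19 FPKM in PLC/PRF/5 with PF-429242 and 2.00 in its control. LAMTOR1, LAMTOR2 and LAMTOR4, subunits of the complex that anchors nutrient signalling to the lysosome, had ratios between 0.794 and 0.987. MBTPS1, the protease that PF-429242 inhibits, had 13.4 FPKM in HepG2 with PF-429242 and 13.0 in its control, and 9.38 FPKM in PLC/PRF/5 with PF-429242 and 9.70 in its control. Its ratios were 1.03 (0.978 to 1.09) in HepG2 and 0.967 (0.906 to 1.03) in PLC/PRF/5, and FURIN, another processing protease of the Golgi, stood at 1.04 and 0.936 times control.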

How the data were processed

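The authors deposited FPKM for 32479 Ensembl genes in 4 libraries. Reads were aligned with TopHat2 to GRCh38, per the submitters' processing notes. Sources used here do not give the counting program, annotation or strandedness, so reads of overlapping genes cannot be told apart, and 13 of the 42 genes share 10% or more of their exon bases with another gene in GENCODE 29.

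Whole fragments were recovered from the FPKM values within a tolerance of 0.001, with GENCODE 29 union exon lengths for 24452 genes (75.29%) and another length solved from the ratios for 7686 (23.66%); 341 (1.05%) stayed unsolved. Interval bounds are exact conditional binomial at 95%. The limit for a count of 0 was 3 fragments. The shared fit used limma 3.58.1 in R 4.3.3 (lmFit, eBayes with trend) on log2(FPKM + 1) of the 12838 genes that reached 1 FPKM in 2 or more libraries, with Benjamini-Hochberg adjustment and cell line as a block. It was tested on simulated data of 12667 genes: of genes changed by log2 1, 97 of 97 were recovered, and by log2 2, 103 of 103, with 10 false calls. The simulated noise had the same spread for every gene, and the changes were equal in both lines and placed in well-expressed genes. The simulation therefore does not show which changes the fit could find in these data, where it called 0 of 12838 genes. The replicates of the fit are the 2 lines, so its p-values measure only the spread between these libraries. Other tables were made with Python 3.11.15 and scipy 1.17.1.

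Every one of the 42 genes may be named. Of each other list, up to 4 genes with the largest mean log2 ratio in size were named, and MBTPS1; 1 gene that this rule selects is not reported here. TFEB and TFE3 were named after their values were seen. The genes, lists and tests were chosen with earlier results of these data known. Alternatives were pseudocounts of 0.1 and 5, no filter or 5 FPKM, 2-fold, 4 other scalings and other limma settings. Added after seeing the data were a minimum of 20 fragments, leaving out genes sharing 10% of exon bases, protein-coding backgrounds, and nuclear totals for the intervals.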

Additional observations from a re-analysis of the deposited data

Results flagged for a closer look

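For 5 genes the counting intervals of the ratio lay below 1 in HepG2 and above 1 in PLC/PRF/5, and the difference between the lines was not tested, since each line had 1 library per group. Of 39 genes these are 12.8%, against 4.86% of all genes. Such shares also depend on fragment counts, which were not matched between the 39 and all genes. The log2(FPKM + 1) ratio in HepG2 minus that in PLC/PRF/5 was -0.54 for NAGPA, the uncovering enzyme. It was -0.63 for GAA, acid alpha-glucosidase, and -0.65 for NEU1, the lysosomal sialidase. It was -0.51 for the aminopeptidase CTSH and -0.17 for the receptor IGF2R. The share of mitochondrial fragments also differed, being 27.6% in HepG2 with PF-429242 against 16.6% in its control, and 28.2% in PLC/PRF/5 with PF-429242 against 21.3% in its control. With totals of nuclear fragments NEU1 alone of these genes kept intervals on opposite sides of 1, where 2.48% of all genes do.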

How the results depend on the processing

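Scaling set the direction of the medians. The median log2 ratio was -0.128 in HepG2 and -0.089 in PLC/PRF/5 on the deposited scale. It was 0.06 and 0.023 with median-of-ratios scaling, 0.05 and 0.03 with nuclear totals, and 0.04 and 0.037 with quantile normalization. On the TPM scale, where the median of all genes was -0.50 and -0.45, it was -0.461 and -0.413. The members' median minus that of all genes was between 0.03 and 0.06 in both lines under these scalings. It was below 0 without the filter (-0.04 in HepG2 and -0.04 in PLC/PRF/5), with a pseudocount of 5 in HepG2 (-0.0029) and at 5 FPKM in PLC/PRF/5 (-0.01).

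In HepG2 the count of genes at least 1.5-fold lower was 1, and became 2 with a pseudocount of 0.1 and 10 on the TPM scale. In PLC/PRF/5 it was 1, and became 3 with a pseudocount of 0.1, 7 on the TPM scale, and 0 with a pseudocount of 5, a threshold of 2-fold, median-of-ratios scaling, nuclear totals or quantile normalization. The count higher in PLC/PRF/5 was 0, and 1 with nuclear totals or quantile normalization. Between controls the 5 higher genes became 9 on the TPM scale and 3 at 2-fold. The 15 lower became 10 on the TPM scale or with a pseudocount of 5, 13 at 5 FPKM and 7 at 2-fold. They became 17 with a pseudocount of 0.1 or with nuclear totals. The shared fit called 0 of 41 genes, and on the TPM scale 26, all lower, beside 6399 of 12838 genes lower and 45 higher, and the CTSB value was then -0.038. Without the cell line block and with limma-voom it also called 0. At an unadjusted p under 0.05 it listed 9 lower and 1 higher on the deposited scale, 4 and 3 with nuclear totals or median-of-ratios scaling, 3 and 4 with quantile normalization, 30 and 0 on the TPM scale, and 1 and 0 without the block. Of all 12838 genes it listed, in either direction, 2488 on the deposited scale, 1345 with nuclear totals and 1343 with median-of-ratios scaling. It listed 1328 with quantile normalization, 7817 on the TPM scale and 112 without the block. Signs in that fit turned for 9 genes on the TPM scale, 13 with median-of-ratios scaling, 14 with nuclear totals and 17 with quantile normalization. No paired analysis was possible because each group held 1 library, beyond the shared fit itself, whose cell line block pairs the libraries of a line. With 1 library a group, none could be left out in turn. Genes under 1 FPKM in both libraries of a pair, such as GALC, IDUA and IDS in HepG2, were left out of medians and counts by the filter. Of these, GALC had no HepG2 ratio, having 0 fragments in both libraries.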
